A study of Homo sapiens with 6 samples.

Results

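The genes described here encode the mitochondrial respiratory chain and ATP synthase, in cells depleted of the splicing factor SON. They were chosen by name: every protein-coding gene whose symbol starts with NDUF, UQCR, ATP5, MT- or COX4 to COX8, together with SDHA to SDHD and CYC1. The rule found 112 genes among the 58735 of the table, of which 84 are nuclear genes for structural subunits, 13 are encoded on the mitochondrial chromosome and 15 are other nuclear genes (assembly factors, an inhibitor, a supercomplex factor, a retrocopy, related genes and readthrough loci). The RNA came from RPE-1, an established human retinal pigment epithelial line, in a derivative that carries GFP-tagged CETN2 to mark centrioles and a PLK4 gene driven by rtTA from a doxycycline-inducible promoter. Cells of the siControl group (3 libraries) received a scramble siRNA and those of the siSON group (3 libraries) an siRNA against SON. PLK4 was induced with 1 µg/mL doxycycline in both groups, so both carry the induction and there is no uninduced group among these 6 libraries. The labels give neither a time of harvest nor separate cultures, so p-values measure the spread between these libraries, which may be technical.

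The respiratory chain passes electrons from NADH and succinate through complexes I and II to ubiquinone, on to complex III, cytochrome c and complex IV, and complexes I, III and IV pump protons that drive ATP synthase, also called complex V. Most subunits are encoded in the nucleus by genes with introns, so their transcripts pass through the spliceosome. The remaining subunits are encoded by the mitochondrial chromosome, which has no introns. It is transcribed inside the organelle as long precursors that are cut mostly at tRNAs. Complex II is wholly nuclear, whereas complexes I, III, IV and V are built from both sets. SON resides in nuclear speckles and takes part in splicing, so the comparison of the groups sets genes that need its process beside genes of the same complexes that do not.

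SON itself was checked first, and it had 295.3, 312.7 and 283.9 CPM (counts normalised to library size with TMM factors) in the siControl libraries and 67.96, 69.96 and 65.00 CPM in the siSON libraries. Its level in siSON was 22.8% of the control (log2 fold change -2.14 with SE 0.06, edgeR quasi-likelihood test, adjusted p = 6.78e-10). Total counts ran from 54572365 to 69764836 per library, and replicates of each group differed by more than sampling noise (chi-square per degree of freedom 6.68 to 23.6). Replicate 1 stood apart from replicates 2 and 3 in both groups, so counts are also given without it where it matters. Of 7 markers of pigment epithelium, MITF, OTX2 and BEST1 were measured at 8.26 to 34.2 CPM, PMEL at 2.16 to 2.26 CPM in siControl and 0.16 to 0.24 CPM in siSON, and the defining visual cycle genes RPE65 and RLBP1 were at or below 0.27 CPM, with TYR at 0. Of the epithelial markers, KRT8 was at 590 to 733 CPM, KRT18 went from 221 to 250 CPM in siControl to 572 to 576 CPM in siSON, and CDH1 and EPCAM did not exceed 0.17 CPM. The mesenchymal markers FN1 (7169 to 9940 CPM) and VIM (6051 to 8296 CPM) were far higher in both groups, and COL1A1 went from 144 to 160 CPM to 28.0 to 41.4 CPM. The blood marker PTPRC was at 1.21 to 2.10 CPM in siControl and 0.26 to 0.29 CPM in siSON, and of the neuronal markers RBFOX3 was at 0 and SNAP25 at 4.71 to 6.31 CPM and 7.46 to 9.17 CPM. The part of these marker changes in the results on the respiratory chain was not tested. Because these are bulk samples, fewer cells of a kind and less RNA per cell cannot be told apart.

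With TMM scaling, 75.6% of nuclear subunit transcripts tested were called changed in siSON, near the share of protein-coding genes. More of them were higher than lower, by small amounts, an excess absent with library size alone or cyclic loess. The few large changes were mostly falls. Of the 112 genes, 103 passed the count filter and 77 were called changed at an adjusted p under 0.05, 50 higher and 27 lower (edgeR). Across all 16591 genes tested, 71.7% were called, 35.2% higher and 36.5% lower, so the share of members called is near that of all genes. Among the 13008 protein-coding genes tested, 77.4% were called, 40.3% higher and 37.1% lower, with a median log2 fold change of 0.03. Of these, 2427 were at least 2-fold lower and 1121 at least 2-fold higher. Among the 78 nuclear subunits tested, 43 were higher, 16 lower and 19 not called, with a median log2 fold change of 0.18 beside -0.03 for all genes tested. The 13 mitochondrially encoded subunits divided into 4 higher, 5 lower and 4 not called, with a median of -0.08 and a range of -0.39 to 0.20. A fall of at least 2-fold was called for 7 of the 78 nuclear subunits (20.5% of all genes tested), a rise of that size for UQCR11 alone (8.72% of all genes tested) and neither for any mitochondrial transcript. The groups did not overlap for 77 of the 103 members tested, beside 75.1% of all genes.

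The balance of small rises and falls rests on how libraries were scaled. With library size alone, which moved the median of all genes by -0.20, 25 nuclear subunits were higher and 27 lower, and 0 mitochondrial transcripts were higher and 7 lower. With cyclic loess normalization the nuclear subunits divided 27 and 27, and all 13 mitochondrial transcripts were lower. A core of 22 nuclear subunits higher and 16 lower had the same call under each of 6 scalings (TMM, RLE, DESeq2, TMM without mitochondrial genes, library size and cyclic loess). Against TMM, mitochondrial transcripts shifted by a median of 0.0016 with RLE or DESeq2, -0.20 with library size and -0.50 with cyclic loess. Nuclear subunits shifted by -0.20 with library size and -0.17 with cyclic loess. A fall was thus likelier than a rise to keep its call, and kept calls do not compare rises with falls. Relative to the median of all genes in the same fit, 54 of 78 nuclear subunits lay above it with TMM and with library size, and 37 of 78 with cyclic loess.

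**Figure D1:**
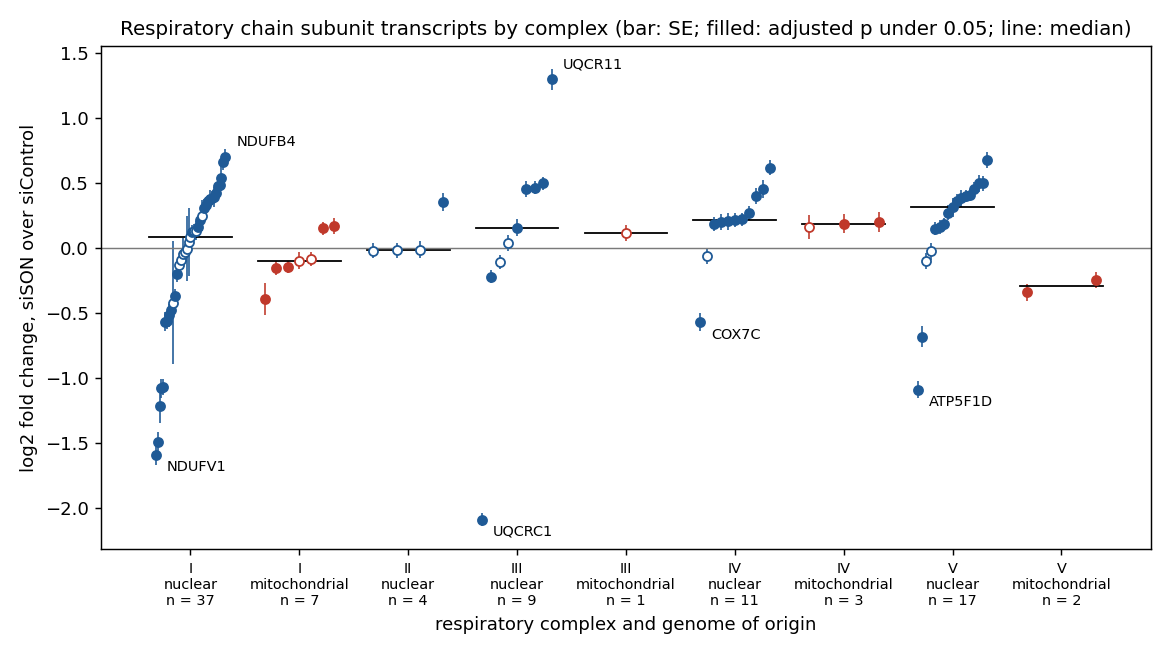
Log2 fold change (vertical axis, siSON over siControl, with SE) of every respiratory chain subunit tested, grouped along the horizontal axis by complex and by genome of origin, nuclear in blue and mitochondrial in red. Filled points had an adjusted p under 0.05 and lines mark medians; UQCRC1 at -2.09 and UQCR11 at 1.30 are the ends of the range, and the mitochondrial points lie between -0.39 and 0.20, where the sign of those above 0 turns with cyclic loess scaling.

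Transcripts of the mitochondrial chromosome differed among themselves. The 13 protein-coding genes have 2 (MT-ATP8) to 45 (MT-CO1) annotated pseudogenes, so part of their reads may belong to copies. With TMM scaling, transcripts of complex V were lower, those of complex IV had positive values (all negative with cyclic loess) and those of complex I went both ways. Among the falls were those of the ATP synthase pair MT-ATP8 and MT-ATP6, which encode membrane subunits of the proton channel and share 1 transcript. MT-ATP8 had 1874, 1627 and 1610 CPM in siControl and 1407, 1353 and 1280 CPM in siSON (log2 fold change -0.34, SE 0.06, edgeR adjusted p = 6.17e-04). MT-ATP6 had 5932, 5158 and 5247 CPM against 4817, 4563 and 4413 CPM (-0.24, SE 0.06, edgeR adjusted p = 0.00375). For both genes every siSON library lay below every siControl library, and both calls held under all 6 scalings and with any single library left out. Library size and cyclic loess both moved the mitochondrial transcripts down, so a fall that held under all 6 scalings is a weak check. The reading frames overlap, so reads from the shared bases cannot be assigned to either gene. The end of the MT-ATP8 coding sequence is shown for that reason, with the 46 of its 207 bases that belong also to MT-ATP6 in capitals (GENCODE 29, chrM:8473-8572, plus strand).

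MT-ATP8 end: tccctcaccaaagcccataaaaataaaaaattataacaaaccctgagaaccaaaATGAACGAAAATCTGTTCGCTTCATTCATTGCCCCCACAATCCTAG

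Next to this pair on the same strand lies MT-CO3, which encodes a core subunit of complex IV and is cut from the same precursor. MT-ATP6 and MT-CO3 meet at base 9207, with no tRNA gene between them. MT-CO3 had 7245, 6111 and 6069 CPM in siControl and 8245, 6904 and 6558 CPM in siSON, groups that overlap, and it was not called (log2 fold change 0.16, SE 0.09, edgeR adjusted p = 0.15). In a fit with replicate number as a block it was called higher, though the labels do not pair the libraries. Its log2 fold change became -0.36 with cyclic loess. A ratio of both genes within a library does not depend on a factor for the whole library. Cyclic loess scales by abundance and can change a ratio, and with it MT-ATP6 was at -0.75. The log2 ratio of MT-ATP6 to MT-CO3 counts was -0.29, -0.24 and -0.21 in siControl and -0.78, -0.60 and -0.57 in siSON, a difference of -0.40 with no overlap. The ratio of MT-ATP8 to MT-ATP6 moved by only -0.09, from -1.68 ± 0.02 to -1.77 ± 0.02 (SD, n = 3), again with no overlap.

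MT-ND4L and MT-ND4, which encode antiporter-arm subunits of complex I on another shared transcript, were also lower. MT-ND4 had 9194, 8510 and 8048 CPM against 7877, 7825 and 7430 CPM (log2 fold change -0.15, SE 0.06, edgeR adjusted p = 0.0267). MT-ND4L had 1408, 1482 and 1375 CPM against 1284, 1323 and 1252 CPM (-0.14, SE 0.05, edgeR adjusted p = 0.018). The groups did not overlap for either gene, and the log2 ratio of MT-ND4L to MT-ND4 was -2.59 ± 0.10 in siControl and -2.58 ± 0.03 in siSON (SD, n = 3). Both falls held under all 6 scalings, but the MT-ND4 call was lost when siControl replicate 1, siSON replicate 2 or siSON replicate 3 was left out, and the MT-ND4L call without siControl replicate 2 or siSON replicate 3. This overlap is much shorter, 7 of the 297 bases of MT-ND4L, shown in capitals at the end of its coding sequence (GENCODE 29, chrM:10707-10766, plus strand).

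MT-ND4L end: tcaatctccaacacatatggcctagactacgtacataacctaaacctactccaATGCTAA

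MT-ND6, a membrane subunit of complex I and the only protein-coding gene on the opposite strand, had the lowest level of the 13. Its fall was the largest with TMM scaling, but with cyclic loess it fell by 0.63, less than MT-ATP8, MT-ATP6 and MT-ND4. It had 116.3, 131.5 and 100.1 CPM in siControl and 73.26, 98.44 and 93.54 CPM in siSON (log2 fold change -0.39 with TMM, SE 0.12, edgeR adjusted p = 0.0164), with no overlap between the groups. The siControl minimum and the siSON maximum were close, and without replicate 1 of both groups the value was -0.29 and no longer called (edgeR adjusted p = 0.12). Whether the counting kept strands apart is not given in the sources used here, and MT-ND6 lies opposite a precursor that is far more abundant. Its log2 ratio to the neighbouring MT-ND5 went from -4.49 ± 0.15 to -5.04 ± 0.16 (SD, n = 3), with no overlap. With cyclic loess MT-ND6 and MT-ND5 had log2 fold changes of -0.63 and -0.34, which lie closer together than with TMM.

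The 4 transcripts called higher were MT-CO1 and MT-CO2, core subunits of complex IV that hold its copper and haem centres, and MT-ND1 and MT-ND5 of complex I. MT-CO1 had 11265, 9923 and 9570 CPM in siControl and 12894, 11739 and 10693 CPM in siSON, so the groups overlapped (log2 fold change 0.20, SE 0.08, edgeR adjusted p = 0.0365). MT-CO2 was at 0.19, MT-ND1 at 0.17 and MT-ND5 at 0.15 on the log2 scale, and among the 4 only MT-ND5 had groups that did not overlap. None of these 4 rises is stable, although library size and cyclic loess moved all mitochondrial transcripts down. With cyclic loess all 4 turned to falls of -0.34 to -0.32. With library size alone MT-CO2, MT-ND1 and MT-ND5 were just under 0 and MT-CO1 at 0.0030, with no call for any. Leaving out single libraries removed the MT-CO1 and MT-CO2 calls in 4 of 6 fits (without siControl replicate 2 or 3, or siSON replicate 1 or 2). The MT-ND1 call was lost in 3 of 6 (siControl replicates 2 and 3, siSON replicate 1) and so was that of MT-ND5 (siControl replicates 1 and 3, siSON replicate 2). MT-ND2 (-0.08), MT-ND3 (-0.10) and MT-CYB (0.12), the cytochrome b of complex III, were not called, and MT-CYB was at -0.39 with cyclic loess. With replicate number as a block, MT-ND2 and MT-ND3 were called lower and MT-CYB higher.

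The mitochondrial ribosomal RNAs, which lie upstream of MT-ND1 on the same strand and are no members of the protein-coding set, differed far more than any of the mRNAs. MT-RNR2 had 4103, 4794 and 4747 CPM in siControl and 11669, 12351 and 10950 CPM in siSON (log2 fold change 1.36, SE 0.07, edgeR adjusted p = 2.06e-08), and MT-RNR1 had a log2 fold change of 1.04. Within libraries the log2 ratio of MT-RNR2 to MT-ND1 rose from 0.19 ± 0.22 to 1.38 ± 0.11 (SD, n = 3). As shares of all counts, the rRNAs took 0.480% to 0.579% in siControl and 1.12% to 1.27% in siSON, and the 13 mRNAs took 5.56% to 6.28% and 4.95% to 5.57%. The rRNA shares did not overlap and the mRNA shares did. Libraries were made with an mRNA kit, and the part that RNA selection has in the rRNA share was not tested. Of 22 mitochondrial tRNA genes, 17 passed the filter, with 8 higher and 0 lower by edgeR.

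**Figure D2:**
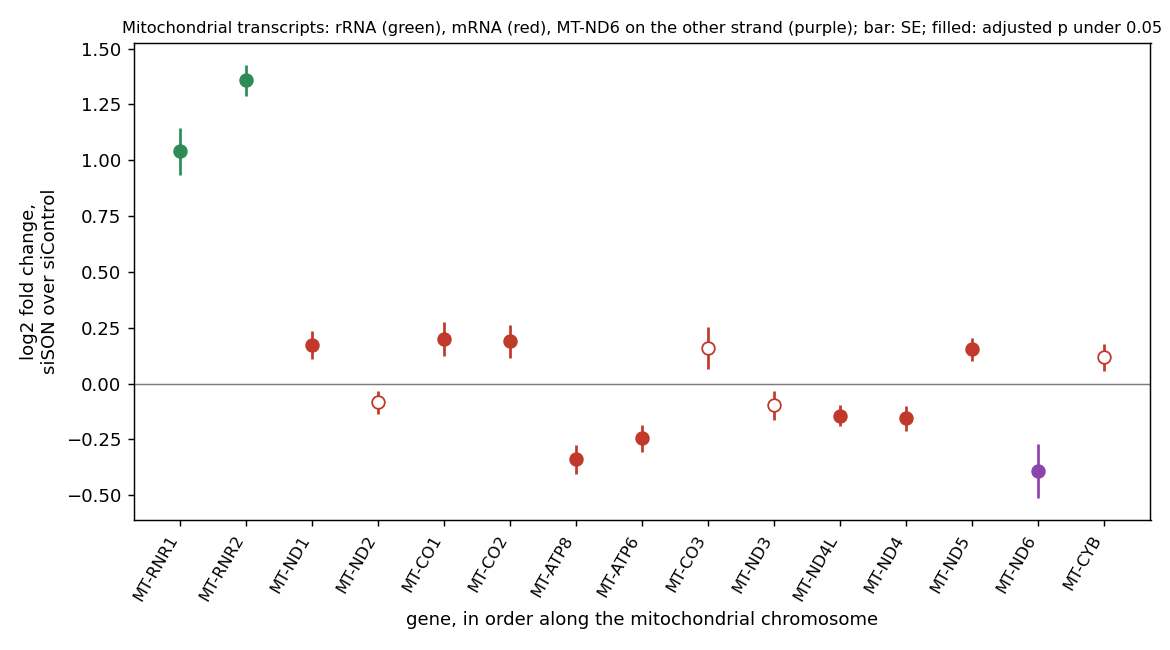
Log2 fold change (vertical axis, siSON over siControl, with SE) of the 2 rRNAs and 13 mRNAs of the mitochondrial chromosome in gene order along the horizontal axis, filled where the adjusted p was under 0.05. The rRNAs stand at 1.04 and 1.36, MT-ATP8 and MT-ATP6 at -0.34 and -0.24, and MT-CO3 next to them at 0.16 (-0.36 with cyclic loess, which also turns the other mRNA points above 0).

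Complex I was divided between rises and falls. Of its 37 nuclear subunits, all tested, 15 (40.5%) were higher and 11 (29.7%) lower with a median of 0.09. Beside these, 35.2% of all genes tested were higher and 36.5% lower. The counts were 10 and 14 with library size alone and 13 and 14 with cyclic loess. The largest falls were in the peripheral arm, which binds NADH and carries electrons along iron-sulfur clusters. NDUFV1, the flavoprotein that oxidises NADH (ENSG00000167792, chromosome 11, 67605653 to 67612554, plus strand, 10 exons) was at 87.58, 84.90 and 85.83 CPM in siControl and 28.24, 31.61 and 25.91 CPM in siSON. This left 33.2% of the control level (log2 fold change -1.59, SE 0.08, edgeR adjusted p = 1.35e-08), with the groups far apart. NDUFA2, an accessory subunit of the same arm (ENSG00000131495, chromosome 5, 140638740 to 140647785, minus strand, 3 exons), went from 35.60, 35.72 and 36.42 CPM to 12.20, 13.69 and 12.47 CPM, a log2 fold change of -1.49 with SE 0.07 (edgeR adjusted p = 1.89e-08). NDUFS7, which holds the last iron-sulfur cluster before ubiquinone, had 42.21, 36.68 and 36.26 CPM against 19.66, 16.89 and 12.94 CPM (-1.22, SE 0.13, edgeR adjusted p = 1.11e-05). Exons of other genes cover 11.98% of the exonic bases of NDUFV1, 13.04% of NDUFA2 and 49.1% of NDUFS7. Those over NDUFA2 and NDUFS7 are on the opposite strand.

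By position in the complex, 7 of the 16 peripheral-arm subunits were lower and 4 higher (median -0.17), and 4 of the 20 membrane-arm subunits were lower and 10 higher (median 0.19). These groups were set with results known and carry no test, and with library size alone the counts were 9 lower and 3 higher in the peripheral arm and 5 lower and 6 higher in the membrane arm. NDUFS3 and NDUFS8, which like NDUFV1 and NDUFS7 belong to the catalytic core kept since bacteria, fell under each of the 6 scalings (-0.57 and -0.37 with TMM). The core subunit NDUFS1 was called higher at 0.13, a value that turned to -0.15 with cyclic loess and -0.07 with library size, and NDUFV2 was measured at 0.76 to 1.23 CPM only. A further pair of accessory subunits fell by more than 2-fold, NDUFA5 (-1.08) and NDUFA10 (-1.07), both chosen for mention after their values were seen.

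The highest rises of complex I were in accessory subunits and were smaller than the falls. NDUFB4, a membrane-arm subunit (ENSG00000065518, chromosome 3, 120596309 to 120602500, plus strand, 3 exons) was at 75.16, 80.01 and 83.51 CPM in siControl and 132.4, 125.5 and 130.4 CPM in siSON (log2 fold change 0.70, SE 0.06, edgeR adjusted p = 7.35e-07). NDUFA8, on the face towards the intermembrane space, went from 39.94, 39.53 and 40.51 CPM to 67.06, 59.24 and 63.80 CPM (0.66, SE 0.06, edgeR adjusted p = 2.78e-06). NDUFA9, which sits where the arms meet, went from 11.25, 9.909 and 10.60 CPM to 16.63, 14.50 and 14.99 CPM (0.54, SE 0.09, edgeR adjusted p = 2.81e-04). For all of these the groups did not overlap and the call held under the 6 scalings. NDUFB4 has 12 annotated pseudogenes, so part of its reads may belong to near-identical copies. NDUFV2, NDUFA13, NDUFA7 and NDUFB8 were counted at 0.14 to 5.62 CPM, and exons of other genes cover 21.0% to 48.5% of their exonic bases, so they say little about the genes.

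**Figure D3:**
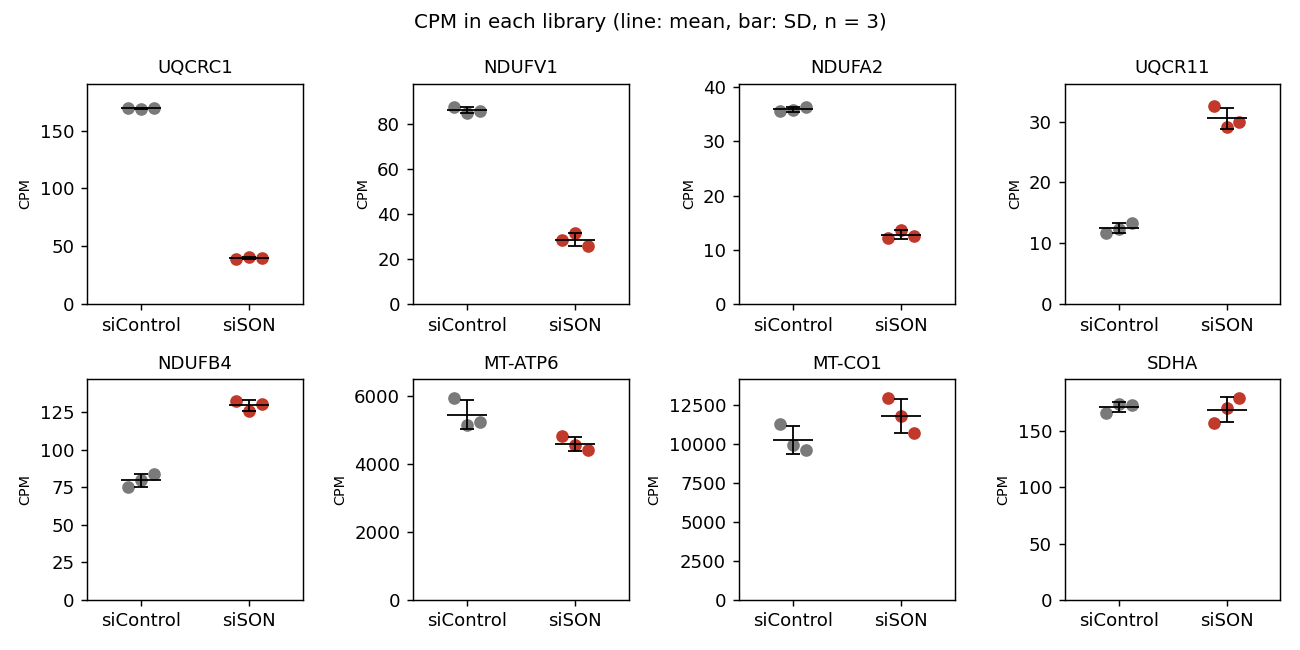
CPM (vertical axes, from 0) in each siControl and siSON library for 8 members, with the mean as a line and the SD as a bar (n = 3). UQCRC1, NDUFV1 and NDUFA2 fall to between 23.5% and 35.6% of the control, UQCR11 and NDUFB4 are higher in every siSON library, MT-ATP6 is lower in every one, and the groups overlap for MT-CO1 and SDHA.

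Complex II, succinate dehydrogenase, had 1 of its 4 subunits called with TMM scaling. SDHA, the flavoprotein, had 166.4, 174.6 and 173.0 CPM in siControl and 157.5, 170.8 and 179.7 CPM in siSON. SDHA, SDHB and SDHC had log2 fold changes of -0.02, -0.02 and -0.01 and were not called. With library size alone all 3 were called lower, and with cyclic loess SDHA (-0.32) and SDHB (-0.19) were. SDHD, a membrane anchor, had 34.50, 31.35 and 36.14 CPM against 44.59, 43.26 and 42.69 CPM (0.36, SE 0.07, edgeR adjusted p = 7.62e-04). That rise was 0.16 and not called with library size alone, and 12.2% of the exonic bases of SDHD lie in exons of other genes.

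Complex III held both ends of the whole range. UQCRC1, a core protein on the matrix side of the complex (ENSG00000010256, chromosome 3, 48599002 to 48610976, minus strand, 13 exons) was at 169.0, 168.8 and 169.9 CPM in siControl and 38.84, 40.95 and 39.50 CPM in siSON. This is 23.5% of the control, or -2.09 on the log2 scale with SE 0.05 (edgeR adjusted p = 6.06e-10), close to the value for SON itself, and no exon of another gene overlaps it. Its partner UQCRC2, the other core protein, was higher at 0.46. The log2 ratio of UQCRC1 to UQCRC2 counts therefore went from 0.69 ± 0.03 to -1.87 ± 0.06 (SD, n = 3). UQCR11, a small accessory subunit (ENSG00000127540, chromosome 19, 1597172 to 1605490, minus strand, 3 exons) was at 11.71, 12.32 and 13.30 CPM against 32.55, 29.22 and 30.04 CPM (1.30, SE 0.08, edgeR adjusted p = 1.00e-07), with 10.9% of its exonic bases in exons of another gene. UQCRB, which binds ubiquinone, fell by 0.22 on the log2 scale, from 208.1, 210.0 and 219.8 CPM to 185.7, 178.9 and 183.3 CPM. In all, 5 of the 9 nuclear subunits were higher and 2 lower, and 4 and 4 with library size alone or cyclic loess.

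UQCRH, the acidic hinge protein that helps cytochrome c dock, has an intronless copy, UQCRHL, and the pair shows how far counts can be told apart. UQCRH had 102.9, 103.1 and 107.3 CPM in siControl and 151.7, 140.8 and 150.1 CPM in siSON (log2 fold change 0.50, SE 0.05, edgeR adjusted p = 6.22e-06). UQCRHL had 6.08, 5.73 and 6.85 CPM against 9.10, 8.73 and 8.44 CPM (0.49, SE 0.11, edgeR adjusted p = 0.00152). The log2 ratio of copy to parent was -4.07 ± 0.10 and -4.07 ± 0.07 (SD, n = 3), so the intronless copy moved with the gene that has introns. The coding sequences, read from GENCODE 29 transcripts (GRCh38), are identical at 98.6% of 276 bases, with a longest identical run of 157 bases, and how reads with several matches were counted is not given in the sources used here. The 4 bases that differ are in capitals.

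UQCRH: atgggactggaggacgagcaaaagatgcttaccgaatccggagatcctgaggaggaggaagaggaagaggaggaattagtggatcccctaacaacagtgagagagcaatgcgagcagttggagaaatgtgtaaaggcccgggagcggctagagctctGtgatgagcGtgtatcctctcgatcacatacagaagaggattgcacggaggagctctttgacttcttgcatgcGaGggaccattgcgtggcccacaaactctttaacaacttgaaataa
UQCRHL: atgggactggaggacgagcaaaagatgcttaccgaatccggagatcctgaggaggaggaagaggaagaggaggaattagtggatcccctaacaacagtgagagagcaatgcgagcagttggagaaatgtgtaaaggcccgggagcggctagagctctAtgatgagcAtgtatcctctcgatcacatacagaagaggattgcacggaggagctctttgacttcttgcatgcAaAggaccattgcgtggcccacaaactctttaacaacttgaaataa

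Complex IV, cytochrome c oxidase, was mostly higher by small amounts with TMM scaling. Of its 17 nuclear subunits 11 passed the filter; 9 were higher and 1 lower with a median of 0.22, but only 3 higher and 2 lower with library size alone or cyclic loess. The exception was COX7C, a small membrane subunit, with 81.66, 74.49 and 79.65 CPM in siControl and 57.52, 49.31 and 51.88 CPM in siSON (log2 fold change -0.57, SE 0.07, edgeR adjusted p = 2.04e-05). COX6C had the largest rise, from 65.09, 62.08 and 63.08 CPM to 102.4, 94.83 and 94.78 CPM (0.62, SE 0.06, edgeR adjusted p = 1.84e-06). COX6B1, which faces the intermembrane space, went from 82.05, 73.93 and 80.06 CPM to 118.3, 101.7 and 103.8 CPM (0.46, SE 0.07, edgeR adjusted p = 1.26e-04). COX6C, COX6B1 and COX6A1 (0.40) rose and COX7C fell under each of the 6 scalings, and COX6C has 17 annotated pseudogenes. COX4I1 (0.22), COX7A2 (0.19) and NDUFA4 (0.22), a subunit named for complex I but found in complex IV, were called higher with TMM and were at -0.11, -0.07 and -0.06 with cyclic loess, not called. COX7B, at 0.20, was not called without siControl replicate 2, and COX7A2 was not called without siControl replicate 1.

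Several subunits of complex IV exist as tissue isoforms, and only the widely expressed form passed the filter in these cells. COX4I2, COX6A2, COX6B2, COX7A1, COX7B2 and COX8C, forms known from lung, heart and skeletal muscle or testis, did not pass the filter, whereas COX4I1, COX6A1, COX6B1, COX7A2, COX7B and COX8A all did. COX8A (-0.06) and the supercomplex factor COX7A2L (-0.05) were not called, although both were called lower with library size and with cyclic loess. NDUFA4L2, the relative of NDUFA4 that responds to hypoxia, stayed at 0.10 to 0.54 CPM. The other 3 genes below the filter were the readthrough loci ATP5MF-PTCD1 and NDUFC2-KCTD14 and the copy ATP5MGL.

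ATP synthase had the highest median among the nuclear sets, 0.31, with 13 of 17 subunits higher and 2 lower (8 and 4 with library size alone, 6 and 5 with cyclic loess). ATP5F1A, the alpha subunit of the catalytic head, was called higher at 0.19 with TMM and lower at -0.18 with cyclic loess. Both falls called with TMM were in the rotor. ATP5F1D, the delta subunit of the central stalk (ENSG00000099624, chromosome 19, 1241746 to 1244826, plus strand, 4 exons) was at 56.37, 54.63 and 53.68 CPM in siControl and 25.59, 24.37 and 27.35 CPM in siSON. This is 46.9% of the control (log2 fold change -1.09, SE 0.07, edgeR adjusted p = 7.85e-08). ATP5MC1 is 1 of 3 genes for the same mature c-ring protein, and the 3 genes did not move alike. ATP5MC1 had 32.72, 27.65 and 28.76 CPM against 18.49, 18.79 and 18.26 CPM (-0.68, SE 0.08, edgeR adjusted p = 1.56e-05). ATP5MC3 went from 128.9, 125.9 and 127.5 CPM to 169.5, 166.9 and 170.8 CPM (0.41, SE 0.05, edgeR adjusted p = 1.25e-05). ATP5MC2 was higher at 0.38, a value that was 0.06 and not called with cyclic loess.

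ATP5MPL, a small membrane subunit, and ATP5F1C, the gamma shaft of the rotor, had the largest rises of ATP synthase. ATP5MPL had 57.77, 62.30 and 61.42 CPM against 103.6, 94.45 and 92.50 CPM (log2 fold change 0.68, SE 0.06, edgeR adjusted p = 1.99e-06). ATP5F1C had 121.2, 129.7 and 134.6 CPM against 188.7, 175.4 and 180.7 CPM (0.50, SE 0.06, edgeR adjusted p = 1.08e-05). The groups did not overlap for either, and both were called under the 6 scalings, with the epsilon subunit ATP5F1E (0.45) and the stalk subunit ATP5PO (0.50). The inhibitor ATP5IF1, which blocks ATP hydrolysis by the enzyme, moved the other way, from 85.88 to 93.56 CPM in siControl to 63.84 to 68.25 CPM in siSON (log2 fold change -0.42, SE 0.06, edgeR adjusted p = 4.96e-05).

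Assembly factors of complex I showed more falls than rises with TMM. Of the 8 NDUFAF genes, 5 were lower (62.5%, beside 36.5% of all genes tested) and 2 higher (25.0%, beside 35.2%). With cyclic loess 3 were lower and 3 higher. NDUFAF8 had 41.93, 40.75 and 38.79 CPM in siControl and 19.80, 20.26 and 19.69 CPM in siSON (log2 fold change -1.02, SE 0.07, edgeR adjusted p = 1.29e-07). NDUFAF3 had 62.13, 61.17 and 63.31 CPM against 29.84, 29.94 and 33.60 CPM (-0.999, SE 0.07, edgeR adjusted p = 1.55e-07), with 21.7% of its exonic bases in exons of DALRD3 on the other strand. NDUFAF2, a late-stage factor, was the largest rise, from 20.31, 17.73 and 18.87 CPM to 34.48, 31.24 and 31.89 CPM (0.78, SE 0.08, edgeR adjusted p = 4.11e-06). These genes differ in build: the median intron of NDUFAF3 is 115.5 bases and that of NDUFAF2 is 53671 bases. NDUFAF4 was higher at 0.40, a value of 0.20 that was not called with library size alone.

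The balance of mitochondrial to nuclear subunit transcripts was then compared complex by complex, from counts per kilobase summed over the subunits of each genome within a library. A single factor per library does not enter these ratios, but cyclic loess, which scales by abundance, can change them. Mitochondrial transcripts exceeded nuclear ones in every library and complex. For ATP synthase the log2 ratio was 4.40, 4.20 and 4.15 in siControl and 3.72, 3.70 and 3.60 in siSON, a difference of -0.58 with no overlap. For complex I it was 4.61, 4.62 and 4.50 against 4.45, 4.47 and 4.39, a difference of -0.14 with no overlap. The ratios of complex III (difference -0.00) and complex IV (difference -0.02) overlapped, with SDs of 0.08 to 0.15 within groups. Median log2 fold changes of complex IV were 0.19 (mitochondrial) and 0.22 (nuclear) with TMM, but -0.33 and -0.02 with cyclic loess. In single pairs, MT-ATP6 over ATP5F1B, the catalytic beta subunit, moved by -0.64 and MT-CO1 over COX4I1 by -0.02, whereas MT-CYB over UQCRC1 moved by 2.21 and MT-ND1 over NDUFV1 by 1.77. The shift of a complex therefore depends on which subunits are paired. Summed over all complexes, nuclear subunits took 0.661% to 0.682% of counts in siControl and 0.645% to 0.660% in siSON.

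**Figure D4:**
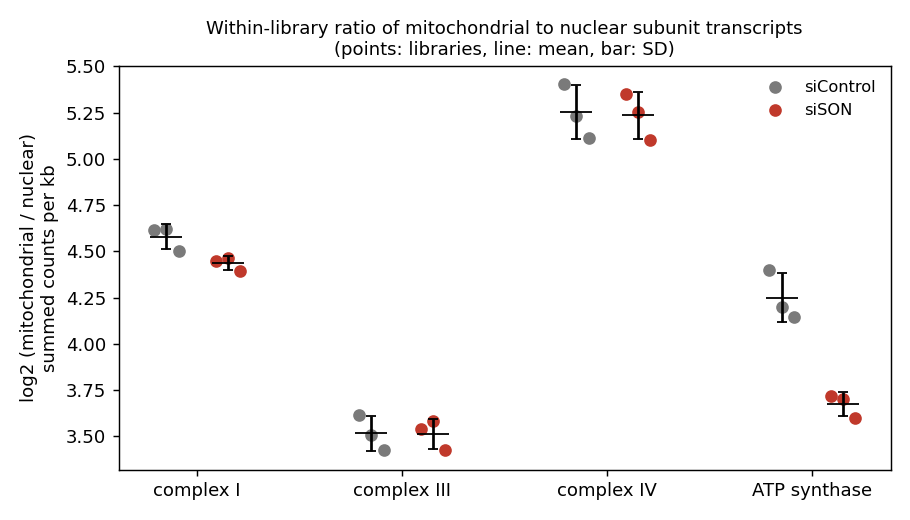
Log2 ratio of summed mitochondrial to summed nuclear subunit counts per kilobase (vertical axis) in each library, by complex along the horizontal axis, siControl in grey and siSON in red, with the mean as a line and the SD as a bar (n = 3). The groups separate for ATP synthase (4.25 and 3.67) and complex I (4.58 and 4.44) and overlap for complexes III and IV.

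Gene structure was compared with the change across the 88 nuclear members with introns, as a description, since genes of 1 set of libraries are not independent. Spearman's rho between log2 fold change and GC content was -0.27, beside -0.21 across 12714 nuclear protein-coding genes with introns, and rho with median intron length was 0.27, beside 0.25 across 12718 genes. In the third of members with the lowest GC content (36.3% to 45.4%), 19 of 29 were higher and 6 lower, and in the third with the highest (53.1% to 69.6%), 11 of 30 were higher and 10 lower. The members with the largest falls were mixed in this respect. UQCRC1 and NDUFV1 have short introns (median 341 and 327 bases) and 59.5% and 61.1% GC, whereas NDUFA5, at -1.08, has 36.4% GC and a median intron of 4091.5 bases. Exon number had a rho of -0.13, and UQCRC1 with 13 exons and NDUFA2 with 3 both fell. Among nuclear protein-coding genes with 1 exon in every transcript, outside the set, 55 of 216 were higher and 89 lower (median -0.17). Of 12779 with more exons, 5183 were higher and 4736 lower (median 0.03). The shares called were 66.7% and 77.6%, and the part of introns in the changes was not tested.

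**Figure D5:**
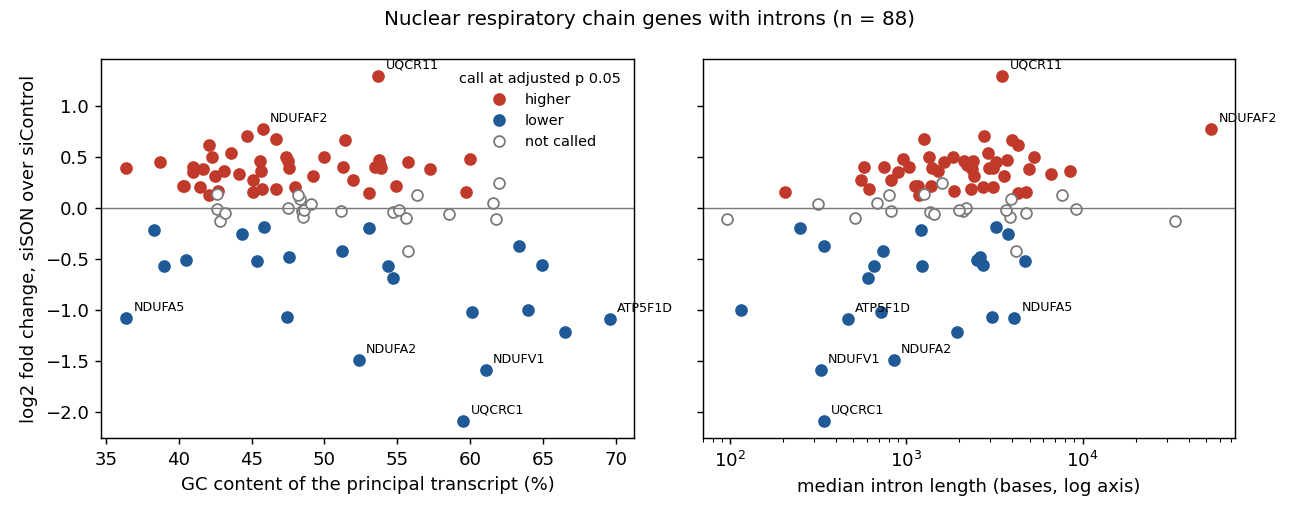
Log2 fold change (vertical axes, siSON over siControl) of 88 nuclear members with introns against GC content in percent (left) and median intron length in bases on a log axis (right), coloured by call. Low points such as UQCRC1, NDUFV1 and ATP5F1D lie at high GC and short introns and NDUFA5 does not, with rho of -0.27 and 0.27.

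Promoters of respiratory genes are known for sites of the factors NRF1, GABP and YY1, so the RefSeq promoters (GRCh38.p14, 250 bases before to 50 after the start) were searched on both strands for GCGCA and GCGC with any base N between them (NRF1), CCGGAAGT (GABP) and AAGATGGCG (YY1), motifs of which none contains another. A promoter was matched for 73 of the 88 members. NRF1 letters were found in 17 (23.3%, beside 5.78% of 35116 promoters), GABP letters in 10 (13.7%, beside 4.14%) and YY1 letters in 8 (10.96%, beside 1.75%). Among members with a promoter, NRF1 letters were in 11 of 39 called higher and 2 of 17 called lower, GABP letters in 7 of 39 and 0 of 17, and YY1 letters in 2 of 39 and 2 of 17. For the genes with the largest fall and the largest rise, the 120 bases before the RefSeq start are shown, with the matches in capitals (UQCRC1 chr3:48609647-48609766 and UQCR11 chr19:1605463-1605582, both minus strand). The GENCODE gene spans given above begin further upstream. The UQCRC1 bases shown lie within that span, and so do the last of the UQCR11 bases. UQCRC1 holds an NRF1 match there and a YY1 match after the start, outside the bases shown, and UQCR11 holds a GABP match and a pair of NRF1 matches.

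UQCRC1: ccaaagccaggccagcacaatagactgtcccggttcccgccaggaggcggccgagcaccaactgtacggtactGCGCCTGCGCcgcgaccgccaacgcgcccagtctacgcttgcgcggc
UQCR11: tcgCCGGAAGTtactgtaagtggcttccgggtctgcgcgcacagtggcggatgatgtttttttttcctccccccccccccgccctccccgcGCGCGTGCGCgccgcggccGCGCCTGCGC

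Genes that build and supply the chain, outside the naming rule, were described from 5 lists. Of 50 further assembly factors tested, 16 were higher and 22 lower (14 and 31 with library size alone, 18 and 16 with cyclic loess). FOXRED1, an assembly factor of complex I, had 17.31, 15.52 and 14.83 CPM in siControl and 0.78, 0.95 and 0.51 CPM in siSON (log2 fold change -4.41, SE 0.17, edgeR adjusted p = 4.22e-09). SCO1, a copper chaperone of complex IV, was at the other end, with 19.22, 17.08 and 17.10 CPM against 56.67, 60.19 and 54.49 CPM (1.68, SE 0.07, edgeR adjusted p = 9.17e-09). Both lie well outside the range of the subunits themselves in 1 direction each.

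Genes for mitochondrial DNA transcription and replication divided into 5 higher and 10 lower of 20 (3 and 13 with library size alone). TOP1MT, the mitochondrial topoisomerase, fell from 12.54 to 14.95 CPM in siControl to 3.32 to 3.91 CPM in siSON (log2 fold change -1.93), and TWNK, the replicative helicase, rose from 15.04 to 16.74 CPM to 37.62 to 45.25 CPM (1.41). Among genes for mitochondrial RNA processing and stability, 13 of 25 (52.0%) were higher and 5 (20.0%) lower (12 and 8 with library size alone). PDE12, which removes poly(A) tails, fell to 17.2 ± 1.06 CPM from 47.2 ± 1.18 CPM (SD, n = 3; -1.45), and RPUSD4, a pseudouridine synthase that acts on the mitochondrial 16S rRNA, rose to 62.6 ± 6.80 CPM from 25.3 ± 1.05 CPM (SD, n = 3; 1.31). Electron carriers and other routes to ubiquinone counted 6 higher and 7 lower of 20 (4 and 11 with library size alone), from COQ10A (-2.15) to ETFA (0.55). Their TMM shares, 30.0% and 35.0%, are near the 35.2% and 36.5% of all genes tested.

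Of 13 nuclear regulators of respiratory genes, 8 were higher and 2 lower (4 and 2 with library size alone, 9 and 2 with cyclic loess). The TMM shares were 61.5% and 15.4%, beside 35.2% and 36.5% of all genes tested. ESRRA, a nuclear receptor that drives these genes, had 21.02, 22.30 and 22.28 CPM in siControl and 6.65, 7.08 and 6.06 CPM in siSON (log2 fold change -1.73, SE 0.09, edgeR adjusted p = 2.44e-08). PPARGC1A, its coactivator, had 3.61, 1.64 and 1.35 CPM against 13.53, 6.24 and 6.18 CPM (1.98, SE 0.42, edgeR adjusted p = 0.00212). The groups did not overlap for PPARGC1A, but replicate 1 was the highest in both groups, and the call was lost without the count filter (edgeR adjusted p = 0.0674).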

How the data were processed

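The authors deposited whole-number counts of reads per gene for 6 libraries, not normalized. Per the submitters' processing notes, cutadapt 1.16, STAR 2.5.2a, featureCounts 1.6.2, DESeq2 1.28.1 and hg38 were used; strand and multi-mapping settings are not given in the sources used here. Columns were matched to libraries by title. All 58735 identifiers matched GENCODE release 29, the source of positions, exons, GC content and introns.

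Counts were fitted in R 4.3.3 with edgeR 4.0.16 (filterByExpr with a minimum count of 10, TMM factors, robust quasi-likelihood, group only), with Benjamini-Hochberg adjustment over all 16591 genes tested and calls at an adjusted p under 0.05. Adjusted p-values printed come from this fit, except where another is named (MT-ND6 without replicate 1, PPARGC1A without the count filter). Those come from the same test in that fit. Calls under DESeq2, voom and cyclic loess use the adjusted p-values of those methods. CPM use TMM-scaled library sizes, except those of the cell type markers, which use total counts. SEs are the absolute log2 fold change over the square root of F. A floor of 3 counts equals 0.0430 to 0.0550 CPM without TMM factors and covers counting error only. On simulated counts for 16253 genes, 91.7% of falls and 90.0% of rises of 1 on the log2 scale were recovered, and 31.3% and 46.0% of those of 0.4, with 6 false calls. The simulation gave all genes the same dispersion and changed only 48 to 50 genes at each size, whereas 71.7% of genes were called in the data. Its recovery therefore does not give the power for the members.

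The members and lists were chosen with earlier results of these data known. Genes named are SON, the 13 MT- genes, the called members with the highest and lowest log2 fold changes of each complex and of the NDUFAF factors (3 each way for complex I, 2 otherwise) among those whose groups do not overlap and whose mean log2 CPM reaches 1, isoform families, genes below the filter, and the called extremes of each list; other members are named for their role or after their values were seen. Alternatives were DESeq2 1.42.0, limma 3.58.1 (voom, cyclic loess), RLE factors, library size only, scaling without mitochondrial genes, other count filters, a replicate block and leaving out libraries. Ratios, shares and figures were made in Python 3.11.15 with pandas 2.3.3. Some single-gene results are not reported here.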

Additional observations from a re-analysis of the deposited data

How the results depend on the processing

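SON fell by 2.18 to 2.10 on the log2 scale whichever library was left out, and the number of all genes called was 11153 to 11806. With single libraries or replicate 1 of both groups left out, 64 to 77 of the 103 members were called (fewest without siControl replicate 2), 35 to 42 nuclear subunits were higher and 15 to 17 lower. The same fits gave 0 to 6 mitochondrially encoded subunits higher (0 without siControl replicate 3) and 3 to 6 lower (3 without siSON replicate 3). Under cyclic loess, nuclear subunits were 27 higher and 27 lower with a median of -0.0089, and mitochondrial ones 0 higher and 13 lower with a median of -0.54. Under library size only, the nuclear counts were 25 and 27 with a median of -0.022, and 0 mitochondrial transcripts were higher, with a median of -0.28. With a mean count of at least 50, 0 mitochondrial transcripts were higher and the nuclear median was 0.13. With the subunits that share over 10% of their exonic bases left out, an alternative added after the data were seen, 47 were tested and 26 were higher and 11 lower. Signs turned under cyclic loess for 17 of 78 nuclear subunits and 6 of 13 mitochondrial ones, and under library size only for 12 and 5. Called with TMM and in the opposite direction with cyclic loess were MT-CO1 (-0.33), MT-CO2 (-0.32), MT-ND1 (-0.33), MT-ND5 (-0.34), ATP5F1A (-0.18) and NDUFS1 (-0.15). MT-CO3 (-0.36) and MT-CYB (-0.39), not called with TMM, were called lower with cyclic loess, and among rises called with TMM, COX4I1 (-0.11), COX7A2 (-0.069), NDUFA4 (-0.059), ATP5F1B (-0.03), NDUFB10, UQCRFS1, COX5A, ATP5MD and ATP5PF turned without a call. With library size only, the rises that turned, none of them called, were COX7A2 (-0.0098), MT-CO2 (-0.0081), MT-ND1 (-0.026), MT-ND5 (-0.043), ATP5F1A (-0.01), NDUFS1 (-0.07), NDUFB10, UQCRFS1, ATP5MD and ATP5PF. MT-CO3 and MT-CYB, not called with TMM, were at -0.04 and -0.08 there. Which scaling is nearer to RNA per cell was not tested. Genes not called may have changed. Changes of 0.4 on the log2 scale were often missed on simulated counts, but their setting differs from the data, so the power for these genes was not tested.

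The replicate numbers do not pair the libraries by the rule used: deviations of same-numbered libraries correlated at 0.194, 0.0461 and 0.118, and those of other pairs at -0.138 to 0.0286, so every library correlated best with its own number, a hint from the data and not the design. With the replicate block, 12313 of all genes and 83 members were called, with 45 nuclear subunits higher and 16 lower, 6 mitochondrial ones higher and 7 lower (adding MT-CO3 and MT-CYB to the first and MT-ND2 and MT-ND3 to the second), and SON at -2.14.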

Other observations

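Counts at mitochondrial tRNA genes were low, and 8 of the 17 tested were called higher, 9 were not called and 5 of those had log2 fold changes below 0 (-0.25 to -0.08). A pair of the rises, chosen after their values were seen, is given. MT-TT, next to MT-CYB, had 1.85, 2.09 and 1.55 CPM in siControl and 5.29, 5.08 and 3.88 CPM in siSON (log2 fold change 1.38, SE 0.17, edgeR adjusted p = 2.60e-05). MT-TA, between MT-ND2 and MT-CO1, had 0.82, 1.26 and 1.00 CPM against 2.171, 1.997 and 2.243 CPM (1.06, SE 0.21, edgeR adjusted p = 7.21e-04). The groups did not overlap for either gene, beside log2 fold changes of -0.08 for MT-ND2, 0.12 for MT-CYB and 0.20 for MT-CO1, the last 2 of which were -0.39 and -0.33 with cyclic loess. These are neighbours by position only, and the strand setting of the counting is not given, so the strand of these few reads is not known. In all, tRNA genes took 0.0032% to 0.0039% of counts in siControl and 0.0042% to 0.0047% in siSON.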
